A study of Mus musculus with 18 samples.

Results

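The inserts described here are the members of an INSERT-seq library whose numbers run from 4001 to 5500 and that have no spliced form among the listed reference sequences. A mean of at least 20 genomic DNA (gDNA) reads over the 9 gDNA libraries was also required. Of the 1500 inserts in the number range, 140 had a spliced form listed and 65 of the rest fell under the gDNA minimum, which left 1295 of the 16461 inserts in the library. "Unspliced" means only that no spliced form is listed. Inserts with a spliced form made up 9.33% of the range and 15.1% of the inserts outside it. The comparison group was the 11942 other inserts that had no spliced form and passed the same gDNA minimum, of which 3449 lay between 1 and 4000 and 3010 above 5500 and up to 9000. The sources used here do not give how the library was numbered or ordered, and the tables pair no insert with a gene or a sequence, so inserts are identified by number alone. The number range was selected on the siNT RNA over gDNA of inserts along the library, with the knockdown responses also known, so its level and response are descriptions and carry no test.

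In INSERT-seq, a pool of DNA sequences is integrated at one genomic place, so that each cell transcribes its own insert from the same promoter. The place used here lies in the upstream antisense RNA (uaRNA) of Oct4, the protein of the pluripotency gene Pou5f1, ahead of an mKate2 fluorescent reporter. Upstream antisense RNAs are short-lived noncoding transcripts made in the opposite direction from many active promoters, and their transcription usually stops early. WDR82 and ZC3H4 are the core of the Restrictor complex, which ends or slows transcription soon after RNA polymerase II has started, and acts mostly on noncoding transcription units. Sequence features such as splice sites are known to protect transcripts from early arrest.

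All cultures were female mouse embryonic stem cells from a CAST/129 hybrid, grown with LIF, a MEK inhibitor and a GSK3 inhibitor. On the 129 allele they carried TagBFP2 at Oct4, the INSERT-seq library in the Oct4 uaRNA and mKate2 next to it, so siRNA controls shared the full genotype. Each of 3 biological replicates per siRNA received non-targeting siRNA (siNT), siRNA against WDR82 (siWDR82) or siRNA against ZC3H4 (siZC3H4), and gave 1 RNA and 1 gDNA library. The protocol states a dose of 30 nM for all, while the labels of siWDR82 replicates 2 and 3 read 31 and 32 nM. The depletion of either protein was not analysed here, since both tables count inserts and spike-ins only. The RNA readout is the steady-state level.

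Insert reads totalled 32173068 to 52840375 per RNA library and 4584881 to 11510602 per gDNA library. The members took 11.1% to 12.2% of the RNA reads and 8.70% to 10.2% of the gDNA reads in the 9 cultures. The median member had 1619 to 2827 RNA reads and 257 to 646 gDNA reads per library. No molecular identifiers are mentioned, so reads include PCR duplicates, and intervals and floors cover counting error only. The level of an insert was log2 of its RNA CPM (reads scaled to the library total) plus 0.5, minus the same for gDNA. A level of 0 is thus an insert with equal shares of the RNA and of the gDNA reads. An insert with 0 reads of both kinds in a culture also gets a level of 0. Because gDNA counts integrated copies in a bulk culture, fewer cells making the RNA and less RNA per cell cannot be told apart.

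With siNT, the members gave more RNA per gDNA than the other inserts without a spliced form. Their median level was -0.086, -0.30 and -0.37 in the 3 siNT cultures, against -1.16, -1.01 and -1.04 for the other inserts. The values of the 2 sets did not overlap, and siNT culture 1 held both the highest member median and the lowest median of the others. The member median exceeded that of the others by 0.82 ± 0.22 log2 units (SD, n = 3 cultures). At matched gDNA abundance the excess was 0.70 ± 0.16, which overlaps the unmatched value. The median mean gDNA count was 493 for members and 437 for the others.

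The members were intermediate between the neighbouring number ranges rather than at an extreme of the library. Inserts 1 to 4000 had a median siNT level of 0.22 ± 0.14 (SD, n = 3) and inserts above 5500 to 9000 one of -1.47 ± 0.13, with the members at -0.25 ± 0.15 between them. In every siNT culture the order was the same. Against the pooled inserts of those flanking ranges, the excess of the members was 0.26 log2 units, less than against all others.

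Levels within the set were wide. The mean siNT level of a member was -3.66 at the 5th percentile, -1.43 at the 25th, -0.34 at the median, 0.58 at the 75th and 1.57 at the 95th. The 5th and 95th percentiles lay 37.3-fold apart, and the members' SD over inserts was 1.59 log2 units, against 1.70 for all others, 1.37 for inserts 1 to 4000 and 1.53 for inserts above 5500 to 9000. The others were thus wider still, with those percentiles 46.7-fold apart. The typical member varied by an SD of 0.62 between the 3 siNT cultures, so most of the width exceeded the replicate spread. When all unspliced inserts were cut into 5 equal groups (quintiles) of siNT level, the members filled them from the lowest to the highest with 11.3%, 12.1%, 17.2%, 26.6% and 32.8% of their number. Members were thus found in every quintile, with 425 in the highest and 146 in the lowest. Spearman's rho between siNT cultures over the 1295 members was 0.68 to 0.72, where cultures share the gDNA pool and its abundance order.

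By edgeR's quasi-likelihood test at a Benjamini-Hochberg adjusted p of 0.05, 242 of 1288 tested members had more RNA than gDNA and 229 had less. Over all 15364 inserts tested, spliced ones included, 12.3% were called above gDNA and 26.3% below. As the range was proposed on this same level, nothing is read from these counts. The other 7 members had a mean under 5 RNA reads and were not tested. With RNA and gDNA of one culture paired as a block, 307 members were above and 287 below (15.8% and 33% of all tested inserts), of which 240 and 217 were also called without the block.

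Insert sequence_04623 had the largest positive fitted level among members past the threshold. Its siNT cultures held 3768, 2524 and 5112 RNA reads against 44, 122 and 101 gDNA reads, and levels of 4.3, 2.44 and 3.60, all 3 above the 95th percentile of the members. The fitted log2 ratio was 3.64 (SE 0.77) with an edgeR adjusted p of 0.00113. At the median of the members, insert sequence_05303 had levels of -0.51, -0.22 and -0.28 from 1114, 1178 and 1278 RNA reads. The lowest fitted level was that of insert sequence_04095, a rank that depends on the fit because it had 0 RNA reads in all 3 siNT cultures against 205, 500 and 276 gDNA reads. By the level itself, sequence_04381 (mean -7.23) and sequence_04143 (-6.65) were lower than its -5.77. They had 3 and 2 siNT RNA reads in all, where the added 0.5 CPM largely sets the RNA side. The order of these levels thus follows their siNT gDNA reads, 2965 and 2035 against 981, and does not rank their RNA.

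Along the number range the siNT level did not decline evenly. In 15 windows of 100 numbers, the median level ran from -0.86 (inserts 5001 to 5100) to 0.18 (inserts 5101 to 5200), and 13 windows were at or below 0. The lowest and the highest window were thus neighbours. Their culture medians did not overlap, with -1.07, -1.04 and -0.76 in the lower window and 0.28, 0.17 and 0.05 in the higher one. The 184 members from 5101 to 5300, a stretch chosen after its values were seen, had a median of 0.17, against -0.39 for 4001 to 5100 and -0.76 for 5301 to 5500. These 184 also had more gDNA, with a median of 702 mean gDNA reads, against 475 and 460 in the stretches before and after them. The part of gDNA abundance in that level was not tested. The SD over inserts was 1.21 in that stretch and 1.63 and 1.55 in the ones on either side.

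The borders of the range were compared with the windows just outside, as a description. Inserts 3901 to 4000 had medians of 0.23, 0.068 and 0.022 in the siNT cultures, and the first member window, 4001 to 4100, had 0.049, -0.28 and -0.34. These culture values overlapped, and each culture was lower in the member window. The last member window, 5401 to 5500, had -0.96, -0.69 and -0.56, and the next 100 inserts had -0.94, -0.85 and -0.91, which also overlapped. In windows of 500 the median was 0.21 at 3501 to 4000, then -0.28, -0.41 and -0.33 within the range, and -1.20 above 5500 to 6000. The larger step of the 500-number windows was at the upper border. Adjacent members resembled each other little beyond this, with a Pearson r of 0.069 between the siNT levels of neighbours over 1114 adjacent pairs. At the gDNA border, the 29 members with 20 to 40 mean gDNA reads had a median level of -1.69 and held 10 near-silent inserts, and the 18 inserts of the range with 10 to under 20 had -1.24 and 10.

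Few members were near silent. Of the 1295 members, 34 had 3 or fewer RNA reads in the siNT cultures combined, 2.63% (95% Wilson interval 1.88% to 3.65%), against 469 of 11942 others, 3.93% (3.59% to 4.29%). At matched gDNA abundance the share of the others was 2.84%. When siNT culture 3 was left out, at no more than 2 reads, that matched share was 5.22%, against 3.86% of the members (2.94% to 5.05%). Without siNT culture 1 it was 3.81% and without siNT culture 2 it was 4.25%, each against 3.78% of the members (2.87% to 4.97%). The intervals take inserts as independent, and the range was selected on siNT level, so they are descriptions and no test. The number ranges on either side differed more. Inserts 1 to 4000 held 28 such inserts, or 0.812%, and inserts above 5500 to 9000 held 136, or 4.52%. The 34 near-silent members were thinly represented, with a median of 350 gDNA reads over the siNT cultures against 1932 for all members.

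A stricter reading of silence changed the share but left members near the others. With 0 reads required, 16 members (1.24%) and 2.20% of the others were silent, the latter 1.54% at matched gDNA. Among inserts with at least 100 mean gDNA reads, 13 of 1187 members (1.10%) and 1.44% of the others had at most 3 reads, the latter 1.05% at matched gDNA. A sum of 0 reads allows up to 3 reads over the siNT cultures, so silence here means below that depth and not absence of transcription.

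Fewer members were without reads after knockdown. In single siNT cultures 72, 70 and 59 members had 0 RNA reads. The numbers were 33, 31 and 33 for siWDR82 cultures, and 26, 43 and 37 for siZC3H4 cultures. The cultures of either knockdown did not overlap with siNT. These counts include any member that also had 0 gDNA reads in the culture. As a share, members at 0 were 5.17%, 2.50% and 2.73% in the mean of siNT, siWDR82 and siZC3H4 cultures, and the others were at 7.87%, 3.58% and 3.77%. The fewer zeros were thus seen in both sets. Members picked for 0 reads in one siNT culture can have reads in any other library, so the other siNT cultures are the comparison. Of members at 0 in one siNT culture, 52.5% to 58.3% had a read in the other siNT cultures, 68.4% to 74.5% with siWDR82 and 61.6% to 72.7% with siZC3H4, depending on the siNT culture used. For each siNT culture both knockdowns gave the higher share. The shares of the others were close to these, at 48.7% to 57.2%, 69.0% to 75.05% and 68.3% to 73.2%. Of the 34 near-silent members, 25 (73.5%) had more than 3 reads over the siWDR82 cultures and 25 over the siZC3H4 cultures. The shares of near-silent others were 76.5% and 76.1%, close to the members. The near-silent inserts were picked on all 3 siNT cultures, so no siNT culture is left as a comparison for these shares. They are therefore not read as a gain of RNA. Member reads per spike-in read differed between cultures, at 3.14, 4.76 and 4.18 for siNT, 11.5, 5.43 and 7.35 for siWDR82, and 3.09, 6.88 and 9.36 for siZC3H4. The part of these spike-in differences in the fewer members without reads was not tested.

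With siWDR82, the member levels were higher on the median and closer together than with siNT. The member medians were -0.013, -0.015 and 0.019, above all 3 siNT cultures, while the others had -0.58, -0.59 and -0.52. The median change per member against siNT was 0.23, 0.29 and 0.27 in the 3 siWDR82 cultures, a mean of 0.26 ± 0.035 (SD, n = 3), and 0.48 ± 0.031 for the others. Members thus had a smaller median change than the others, by -0.22 ± 0.035 log2 units, and by -0.12 without siNT culture 1. On the mean of the 3 cultures, the median change was 0.036 for inserts 1 to 4000 and 0.70 for inserts above 5500 to 9000. The members lay between them at 0.30, and differed from those ranges pooled by -0.066. The excess of the members over the others, 1.07, 0.71 and 0.67 in the siNT cultures, was 0.57, 0.57 and 0.54 with siWDR82, without overlap.

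With siZC3H4, the member medians were 0.16, 0.12 and 0.0, also above all 3 siNT cultures. The median change was 0.41, 0.36 and 0.27, a mean of 0.35 ± 0.071 (SD, n = 3), against 0.44 ± 0.036 for the others. The difference of -0.094 ± 0.075 was close to its own spread and came to -0.030 without siNT culture 1. On the mean of the 3 cultures, members at 0.33 again lay between inserts 1 to 4000 (0.20) and inserts above 5500 to 9000 (0.58). The excess of the members over the others was 0.83, 0.69 and 0.64, which overlapped the siNT values. The siWDR82 and siZC3H4 changes share the siNT cultures, so their likeness is no separate evidence.

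The size of these changes depends on the scale. Levels above are shares of the library totals. On the TMM scale of the edgeR fit the median fitted change of the tested members with siWDR82 was 0.00 and that of the others 0.17, and with siZC3H4 it was 0.06 against 0.15. With RNA scaled to spike-in reads the median member change was 1.17 ± 0.50 with siWDR82 and 0.86 ± 0.77 with siZC3H4 (SD, n = 3), with siZC3H4 culture 1 at -0.0028. The members stayed below the others on each scale, by -0.19 and -0.076 after spike-in scaling. A scale shifts all inserts of a culture nearly alike, so this likeness is no separate evidence.

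At matched siNT level, averaged over bins, the median change of the members was close to that of the others. For this, each siNT culture in turn ranked the inserts into 20 bins, and the siNT cultures left over served as the baseline of the change. The member median then differed from the others by -0.0083 ± 0.0020 with siWDR82 and by 0.052 ± 0.057 with siZC3H4 (SD, n = 3). As a control, a single siNT culture was set against another, with the remaining one for ranking, which gave -0.00083, 0.20 and 0.21. Both larger values involve siNT culture 1. Unlike the knockdown values, these controls were not averaged over ranking or baseline cultures, so the ranges are not compared. Without siNT culture 1 the siWDR82 value turned to 0.058 and the siZC3H4 value was 0.12. Without siNT culture 2 or 3 they were -0.055 and -0.060 for siWDR82 and 0.021 and 0.023 for siZC3H4, a spread that the SD over knockdown cultures does not hold. The matching was not complete, as the members' level in the siNT cultures not used for ranking was still 0.16 above that of the others.

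The change followed the siNT level among the members. With siWDR82, the median change from the lowest to the highest quintile of level was 1.18 ± 0.12, 0.80 ± 0.032, 0.50 ± 0.024, 0.22 ± 0.054 and -0.12 ± 0.023 (SD, n = 3). With siZC3H4 it was 1.09 ± 0.16, 0.80 ± 0.091, 0.57 ± 0.070, 0.29 ± 0.063 and 0.020 ± 0.047. The lowest and the highest quintile differed by 1.30 and 1.07 log2 units in the members, against 1.22 and 0.93 in the others. With siWDR82, members minus others per quintile was 0.13 ± 0.033, -0.091 ± 0.032, -0.055 ± 0.020, -0.035 ± 0.038 and 0.049 ± 0.043. With siZC3H4 it was 0.21 ± 0.17, 0.054 ± 0.11, 0.052 ± 0.081, -0.015 ± 0.058 and 0.072 ± 0.011. The quintiles thus held differences of either sign, which an average over bins does not show. The negative value of the highest quintile turned positive with spike-in scaling, where it was 0.83 ± 0.52 with siWDR82. The order of the quintiles is the same on each scale, because a scale shifts a whole culture.

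The spread of the members narrowed accordingly. The interquartile range of member levels was 2.17 ± 0.19 with siNT, 1.53 ± 0.085 with siWDR82 and 1.59 ± 0.047 with siZC3H4 (SD, n = 3). The others had 2.53 ± 0.22, 1.79 ± 0.095 and 2.02 ± 0.084. The rank order of members was kept in part, with a Spearman rho of 0.59 to 0.64 between a siNT and a siWDR82 culture and 0.63 to 0.69 between a siNT and a siZC3H4 culture, against 0.68 to 0.72 among siNT cultures.

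Counts of members whose cultures did not overlap with siNT were read against those of all 15484 inserts with enough gDNA. With siWDR82, 229 members (17.7%) had all 3 cultures above all siNT cultures, where 20% of all such inserts did, and 114 (8.80%) had them all below, where 6.87% did. With siZC3H4, 228 members (17.6%) lay above, against 18.1% of all such inserts, and 56 (4.32%) below, against 5.18%. The shares with siZC3H4 were near the background. With siWDR82 the members had fewer inserts above and more below than the background, which includes spliced inserts and the members themselves. They lay between inserts 1 to 4000, with 13.6% above and 11.5% below, and inserts above 5500 to 9000, with 26.3% and 1.69%.

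Single members rarely passed the test. With siWDR82, 7 of 1288 members rose and 0 fell by edgeR's quasi-likelihood test at an adjusted p of 0.05. Over all tested inserts 0.586% rose and 0.111% fell. This fit leaves out the pairing of RNA and gDNA by culture. With that pairing as a block 8 members rose and 34 fell, as described below. Without the block, 178 members passed in either direction at an unadjusted p of 0.05, where 12.8% of all tested inserts did. DESeq2 called 20 rises and 20 falls, where it called 2.18% of all tested inserts up and 1.17% down. Of the 7 rises, 6 were of inserts with 3 or fewer siNT RNA reads in all. Without such inserts no member was called by edgeR. Leaving out siWDR82 culture 1, 2 or 3 gave 1, 2 and 0 called members, of 26, 30 and 20 called inserts in all. Leaving out siZC3H4 culture 1 gave 4 of 75, and leaving out siNT culture 2 or 3 gave 14 of 198 and 19 of 251. The counts of members thus moved with those of the whole library, where 107 inserts were called with every culture in the fit.

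Insert sequence_04095 was named for the largest fitted change with siWDR82. Since its siNT RNA count was 0, that rank depends on the fit, and 5 other members with 1 to 3 siNT reads had estimated folds of 232 to 548, above its bound. Its RNA reads were 0, 0 and 0 with siNT and 191, 64 and 52 with siWDR82, from 205, 500 and 276 and from 104, 87 and 149 gDNA reads. Every siWDR82 culture was above every siNT culture. RNA per gDNA was at least 166-fold higher, against a floor of 3 reads over the siNT cultures, with an edgeR adjusted p of 0.0167 (0.0439 with the block). The adjusted p was 0.0778 to 0.120 when any 1 siWDR82 culture was left out. With siZC3H4 it had 35, 46 and 2 RNA reads, at least 26.7-fold above siNT on the pooled reads, and did not pass the test (edgeR adjusted p = 0.0968). Its siZC3H4 levels of -4.93, -3.40 and -5.97 overlapped its siNT levels of -5.19, -6.50 and -5.62.

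Insert sequence_04979 had the largest rise with siWDR82 among members with more than 30 siNT RNA reads. Its RNA reads were 228, 123 and 393 with siNT and 1384, 1709 and 1470 with siWDR82, and its levels went from -4.58, -4.44 and -2.99 to -1.35, -1.0 and -1.03. The groups did not overlap, and the siNT cultures varied more than the siWDR82 cultures. The fitted log2 change was 2.63 (SE 0.61), with an edgeR adjusted p of 0.0498. That call lay at the threshold. Over the alternatives the adjusted p ran from 0.00257 to 0.220, and it missed the threshold without siNT culture 1 (0.120), without siNT culture 2 (0.0626) and without any siWDR82 or siZC3H4 culture (0.0600 to 0.220). It also missed it narrowly without the RNA minimum (0.0501) and among inserts with more than 3 siNT RNA reads (0.0876). With siZC3H4 its levels were -2.39, -2.52 and -2.03, and the change of 1.38 (SE 0.60) did not pass the edgeR test (adjusted p = 0.480).

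The other 5 rises with siWDR82 are outside the naming rule and were singled out after their values were seen. They were inserts sequence_04143, sequence_04381, sequence_04647, sequence_04976 and sequence_05168, with 1 to 3 RNA reads each over the siNT cultures. The clearest was sequence_04381, with 0, 2 and 1 siNT RNA reads from 478, 971 and 1516 gDNA reads, and 33, 325 and 226 RNA reads with siWDR82 (edgeR adjusted p = 0.00454, or 0.0525 without siWDR82 culture 3). Insert sequence_04143 was uneven, with 117, 1 and 305 RNA reads in the siWDR82 cultures. It lost its call with the block (edgeR adjusted p = 0.0907).

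Among members that were lower with siWDR82, insert sequence_04024 had the lowest p and did not pass. Its levels were 1.59, 1.73 and 1.71 with siNT and 0.60, 0.17 and 0.49 with siWDR82, from at least 931 gDNA reads in each of these libraries. The groups did not overlap. The fitted log2 change was -1.57 (SE 0.37), with an edgeR adjusted p of 0.0584 (0.0284 with the block). It passed by DESeq2 (adjusted p = 0.00184) and, by edgeR, without siZC3H4 culture 3 (0.0491). Scaled to spike-in reads it was -0.34, with an adjusted p of 0.689.

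With RNA and gDNA of each culture paired as a block, edgeR called 8 rises and 34 falls among the members with siWDR82, where 1.44% of all tested inserts rose and 1.68% fell. Of the 8 rises, 6 were called without the block. The 34 members that fell had mean siNT levels of -0.29 to 2.68 with a median of 1.54, and 31 of them belonged to the highest quintile. Each had at least 11688 RNA reads over the siNT cultures and all siWDR82 cultures below all siNT cultures. These values come from the same siNT cultures as the falls, so they are not separate from the selection of the 34. Their fitted log2 changes with the block were -2.66 to -0.97, with a median of -1.37, and their adjusted p without the block was 0.0584 to 0.379. After spike-in scaling, without the block, 44 members rose and 0 fell, where 4.2% of all tested inserts rose and 0.0195% fell.

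With siZC3H4, 3 of 1288 members rose and 0 fell by edgeR at an adjusted p of 0.05, where 0.325% of all tested inserts rose and 0.026% fell. At an unadjusted edgeR p of 0.05, 102 members passed, where 9.39% of all tested inserts did. DESeq2 called 15 rises and 5 falls (1.5% and 0.391% of all tested inserts). The 3 members, sequence_04143, sequence_04381 and sequence_04647, had also risen with siWDR82 against the same siNT cultures. Each had 3 or fewer siNT RNA reads in all, so it met the minimum of 5 mean RNA reads only through the knockdown libraries. Among inserts with more than 3 siNT RNA reads no member was called by edgeR. Leaving out siZC3H4 culture 1, 2 or 3 gave 0 called members, of 13, 12 and 22 called inserts in all. Leaving out siNT culture 1, 2 or 3 gave 9 of 246, 8 of 129 and 11 of 183. With the block 2 rose and 0 fell (0.325% and 0.0716% of all tested inserts).

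Insert sequence_04647 had the largest fitted rise with siZC3H4. Its RNA reads were 0, 0 and 2 with siNT, 426, 119 and 259 with siZC3H4 and 266, 93 and 204 with siWDR82, and its gDNA reads were 135, 260 and 492 with siNT and 116, 58 and 116 with siZC3H4. Every knockdown culture was above every siNT culture. RNA per gDNA was 970-fold higher with siZC3H4 (95% Poisson interval 268 to 8027) and 463-fold higher with siWDR82 (128 to 3834), with edgeR adjusted p of 0.0156 and 0.0193. Leaving out any 1 siZC3H4 culture gave an adjusted p of 0.0584 to 0.155 for siZC3H4.

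Among members lower with siZC3H4, insert sequence_04261 had the lowest p and did not pass. Its levels were 1.80, 1.91 and 2.65 with siNT and 0.30, 0.38 and 0.083 with siZC3H4. The groups did not overlap, and with siWDR82 the insert had 1.75, 1.51 and 0.96. The fitted log2 change with siZC3H4 was -2.19 (SE 0.55), with an edgeR adjusted p of 0.106 (0.0502 with the block). DESeq2 called this fall, with an adjusted p of 0.0100.

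By edgeR, no member was called different between the knockdowns. In the direct contrast of siZC3H4 with siWDR82, edgeR called 0 members and 0% of all tested inserts at an adjusted p of 0.05. At an unadjusted p of 0.05, 25 members passed, where 1.9% of all tested inserts did. DESeq2 called 2 members, both lower with siZC3H4, where 0.0716% of all tested inserts were higher and 0.0911% lower. The gDNA of the members had a median change against siNT of 0.038 ± 0.020 with siWDR82 and -0.037 ± 0.067 with siZC3H4 (SD, n = 3). On the TMM scale of the edgeR fit the median gDNA change of tested members was -0.013 with siWDR82 and -0.13 with siZC3H4. The others had -0.010 and -0.040. The part of gDNA in the siZC3H4 change of the members was not tested. edgeR and DESeq2 each called 0 members in gDNA for either siRNA, with 47 and 60 at an unadjusted edgeR p of 0.05, where 2.73% and 4.22% of all tested inserts passed.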

How the data were processed

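INSERT-seq amplicons of RNA and gDNA from 9 mouse embryonic stem cell cultures were used. The tables the authors deposited hold raw read counts for every insert, separately for RNA and gDNA, and are not normalized. The submitters' processing notes name cutadapt 1.14, STAR, SAMtools, Bowtie2 2.3.4.3 and build mm10. Which role each tool had is not stated there. The members and lists were chosen with earlier results of these data known.

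RNA of an insert was its unspliced reads plus any spliced reads. Levels used log2 of CPM plus 0.5, scaled to library totals. edgeR 4.0.16 (R 4.3.3) fitted quasi-likelihood models with 6 group means to all 15364 inserts that averaged 20 or more gDNA and 5 or more RNA reads, with TMM factors within RNA and within gDNA. The contrast set RNA over gDNA under knockdown against siNT, adjusted by Benjamini-Hochberg over all inserts. The model was tested on simulated counts. Replicates are biological replicates per the series' design text.

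RNA and gDNA of one culture deviated together from their group means in all 9 cultures (r 0.29 to 0.47 across inserts), so they are pairs; same-numbered RNA libraries of different siRNAs had r of 0.019 to 0.14 and were not paired. Named inserts were, per siRNA, the largest rise, the largest rise with more than 30 siNT RNA reads and the 2 largest falls among members past the threshold whose cultures did not overlap with siNT, or else the member of lowest p, and for the siNT level the highest, the lowest and the median. Matching by level used 20 bins. Alternatives were DESeq2 1.42.0, library totals, spike-in scaling, count minimums, the pseudocount, the bins, the comparison inserts, the block and each culture left out. Scaling the median changes to spike-in reads was added after the data were seen.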

Additional observations from a re-analysis of the deposited data

How the results depend on the processing

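The siNT excess of the members was 0.26 against pooled inserts 1 to 4000 and above 5500 to 9000, and 0.69 to 0.89 with 1 siNT culture left out. Inserts 1 to 4000 alone were higher than the members, at 0.22 against -0.25. As the range was selected on this level, its sign over these alternatives is no support. The near-silent share was 1.24% at 0 reads, 1.10% with at least 100 mean gDNA reads, and 3.78% to 3.86% at no more than 2 reads over the siNT cultures left when 1 was dropped, against 5.64% to 6.57% of the others. The difference of member and other change, with 1 culture left out, was -0.27 to -0.12 for siWDR82 and -0.15 to -0.030 for siZC3H4, and at matched level -0.060 to 0.058 and 0.020 to 0.12. Against inserts 1 to 4000 and above 5500 to 9000, the unmatched difference was -0.066 for siWDR82 and -0.016 for siZC3H4. Members called in siNT were 356 to 441 without 1 culture.

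Counts of called members moved most. For siWDR82, 7 members were called, against 40 by DESeq2, 44 after spike-in scaling, 0 among inserts with more than 3 siNT RNA reads, and 0 to 19 without 1 culture. For siZC3H4, 3 were called, against 20 by DESeq2, 6 after spike-in scaling, 6 with library totals, 0 among inserts with more than 3 siNT RNA reads, and 0 to 11 without 1 culture. The gDNA calls were 0, and 0 to 1 for siZC3H4 without 1 culture. With each culture as a replicate block that pairs its RNA and gDNA, the counts were 594 for the siNT level, 42 for siWDR82, 2 for siZC3H4 and 0 for the direct contrast. The cause of these moves was not tested. Of the 29 members with 20 to 40 mean gDNA reads, 10 were near silent, and the part of depth in this was not tested.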
